A study of Mus musculus with 7 samples.

Results

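The genes described here are 36 mouse genes of the unfolded protein response (UPR) and of protein folding in the endoplasmic reticulum (ER), chosen by their known function, with earlier results of these data known. They were read in RNA-seq of pancreatic islets, the endocrine clusters in which β-cells make and secrete insulin, from second-generation (F2) males of wild-type C57BL/6 J stock. In the androgen-exposed (AE) line, labelled HA in the sample names, the founder dams were injected with dihydrotestosterone in late pregnancy. In the control line they received the vehicle, benzyl benzoate in corn oil, alone. The F1 sons were bred with unrelated wild-type females to give the F2 males. The labels name 3 control-F2 and 4 AE-F2 samples, and the values are those of control-F2 replicate 1 and of AE-F2 replicate 4, 1 library each, while the other 5 samples were not analysed here. This pair of libraries was not picked by its values. The age of the males, and whether a library pools animals, are not given in the sources used here. All 36 genes were found by symbol among the 21899 genes of the files, and all 36 passed the minimum mean of 10 counts that 13627 genes passed.

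A single library per group allows no test between the conditions. Each comparison is therefore a log2 ratio, AE-F2 over control-F2, taken after adding 0.5 counts and scaling the libraries with TMM factors, with a 95% Clopper-Pearson interval computed from both counts. The interval covers counting error only, and it leaves out the spread between animals and preparations. A gene is called higher or lower here when it lies at least 1.2-fold away from equality, and CPM is the count scaled to a common library size with these factors. Where a pair of values is given for a gene, the control-F2 value stands first.

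Nascent secretory proteins enter the ER through the translocon, fold there with the help of chaperones and disulfide-forming enzymes, and are sent back to the cytosol for degradation when they fail. Proinsulin is made in large amounts and carries disulfide bonds, so β-cells are known for a heavy folding load. When unfolded proteins accumulate, the sensors IRE1 (Ern1), ATF6 and PERK (Eif2ak3) act through separate arms. IRE1 splices the mRNA of Xbp1, ATF6 is cut to release a transcription factor, and both raise chaperone and degradation genes. PERK phosphorylates the initiation factor eIF2α, which slows translation in general but favours that of ATF4, and ATF4 raises Ddit3 (CHOP), Trib3, Chac1 and genes of amino acid supply. Other kinases that sense amino acid shortage, heme or double-stranded RNA feed into ATF4 as well.

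These arms are known to act on different promoter elements. Promoters of the 3 members with letters of the ATF4 element and of the HSP70 and HSP90 chaperones of the ER are shown as examples of both kinds, picked after their matches and values were seen. RefSeq windows on GRCm38.p6, running from 250 bases before to 50 bases after the annotated start of transcription, were found for 31 of the 36 genes. Both strands were searched for the ER stress response element ERSE, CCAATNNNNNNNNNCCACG, for ERSE-II, ATTGGNCCACG, for the UPR element UPRE, TGACGTGG, and for the C/EBP-ATF response element CARE, TGATGNAAN, and no 2 matches overlapped in the windows of the members. ERSE and ERSE-II are bound by ATF6 and XBP1, and CARE by ATF4 with partners of the C/EBP family. A match is a description of letters, not a shown binding site. The windows below are written 5′ to 3′ in the direction of the gene, with matches in capitals. Herpud1 lies at chr8:94386179-94386478 on the plus strand and holds a CARE match and then an ERSE-II match. Chac1 at chr2:119350992-119351291 (plus strand) and Trib3 at chr2:152344011-152344310 (minus strand) hold 1 CARE match each. Hspa5 at chr2:34771840-34772139 (plus strand) holds 1 ERSE match, and Hsp90b1 at chr10:86705395-86705694 (minus strand) holds 2.
Herpud1: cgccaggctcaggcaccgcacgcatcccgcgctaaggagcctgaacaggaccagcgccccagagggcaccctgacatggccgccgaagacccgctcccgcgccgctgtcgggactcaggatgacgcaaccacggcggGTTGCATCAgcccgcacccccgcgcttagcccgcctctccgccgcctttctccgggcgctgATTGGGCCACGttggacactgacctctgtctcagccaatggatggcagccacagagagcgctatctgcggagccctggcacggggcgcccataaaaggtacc
Chac1: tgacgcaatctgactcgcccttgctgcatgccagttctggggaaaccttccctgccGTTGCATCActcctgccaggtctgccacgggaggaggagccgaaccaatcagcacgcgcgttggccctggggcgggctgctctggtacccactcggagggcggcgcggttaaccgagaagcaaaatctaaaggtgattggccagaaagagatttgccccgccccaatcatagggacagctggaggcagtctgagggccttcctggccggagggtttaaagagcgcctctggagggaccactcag
Trib3: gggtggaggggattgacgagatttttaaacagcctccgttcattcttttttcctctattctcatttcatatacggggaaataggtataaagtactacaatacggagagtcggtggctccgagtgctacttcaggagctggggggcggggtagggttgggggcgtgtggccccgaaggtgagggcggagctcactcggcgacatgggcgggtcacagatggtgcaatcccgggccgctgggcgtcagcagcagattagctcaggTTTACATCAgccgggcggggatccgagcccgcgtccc
Hspa5: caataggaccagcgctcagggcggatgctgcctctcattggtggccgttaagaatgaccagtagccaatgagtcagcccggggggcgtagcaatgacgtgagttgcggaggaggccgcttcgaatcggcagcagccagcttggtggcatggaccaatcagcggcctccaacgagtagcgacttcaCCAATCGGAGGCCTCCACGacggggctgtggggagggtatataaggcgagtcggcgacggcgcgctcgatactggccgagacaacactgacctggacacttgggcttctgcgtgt
Hsp90b1: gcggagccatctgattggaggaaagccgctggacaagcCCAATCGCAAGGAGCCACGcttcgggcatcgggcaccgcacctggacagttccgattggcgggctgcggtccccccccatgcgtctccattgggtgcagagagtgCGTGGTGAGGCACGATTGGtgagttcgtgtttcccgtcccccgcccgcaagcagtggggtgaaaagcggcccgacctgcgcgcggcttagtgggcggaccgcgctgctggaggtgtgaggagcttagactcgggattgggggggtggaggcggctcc

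ERSE letters were present in the windows of 9 of the 31 members (29.0%), namely Hspa5, Calr, Hsp90b1, Canx, Pdia6, Ero1lb, Dnajc3, Creld2 and Syvn1, and in 0.119% of all 32851 promoter windows. ERSE-II was present in Herpud1 and Dnajb11 and in 0.0365% of all windows. CARE was present in Chac1, Trib3 and Herpud1 (9.68% of the 31) and in 3.95% of all windows. UPRE was found in none of the 31 windows and in 0.676% of all windows. The 9 members with ERSE had log2 ratios from -0.13 to 0.09 with a median of 0.05, and the 3 with CARE had log2 ratios from -0.82 to -0.42. The pair with ERSE-II took in Herpud1, which also holds CARE, at -0.42 and Dnajb11, the highest member, at 0.20. Atf4 and Ddit3, which were also lower in AE-F2, had windows without a match to any of these letters. With 3 genes, the CARE values are a description of those genes only. Among all kept genes with a window, 17.6% of the 296 with CARE letters and 9.03% of the 10343 without were at least 1.2-fold lower in the AE-F2 library, and the median log2 ratios of these genes were -0.02 and -0.0017. For ERSE, 5.56% of the 18 genes with the letters (1 gene) and 9.27% of the 10621 without were lower, with medians of 0.05 and -0.0022. The members are included in these shares. The 9 members with ERSE are among the 18 genes, so the ERSE values are no separate check on the members.

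**Figure D1:**
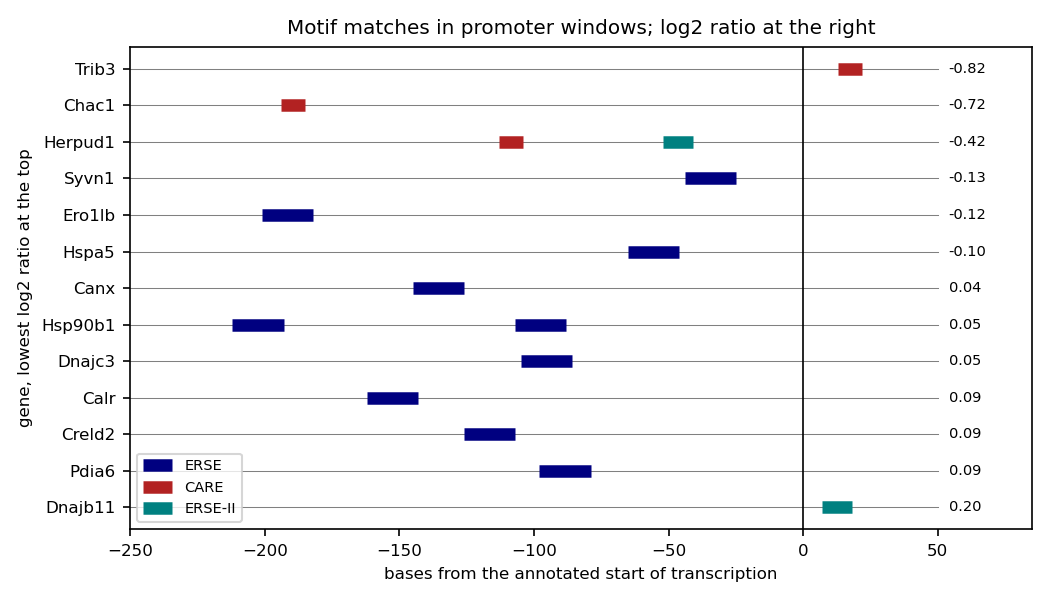
Matches of ERSE, ERSE-II and CARE in the promoter windows of the 13 members that hold any, drawn as bars against the distance in bases from the annotated start of transcription (x axis), 1 gene per line and both strands together. The log2 ratio, AE-F2 over control-F2, stands at the right, and the 3 genes with CARE (red) take the 3 lowest values, -0.82, -0.72 and -0.42.

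The libraries held 16285888 counts (control-F2) and 21278513 counts (AE-F2). The 36 genes together took 1.69% of the control-F2 counts (95% Wilson interval 1.68 to 1.69) and 1.66% of the AE-F2 counts (1.66 to 1.67). β-cell markers identified the tissue, with a summed level of 203300 CPM in control-F2 and 203400 CPM in AE-F2, most of it Ins1 and Ins2. Of the 10 β-cell markers, which are all abundant, 8 had intervals below equality and 2 above, beside 25.5% and 16.0% of the 3471 genes whose mean reached 1000 counts, with a median log2 ratio of -0.10, and 2 were at least 1.2-fold lower, Nkx6-1 (-0.26) and Slc2a2 (-0.28), both named after their values were seen. Both libraries also carried RNA of other cells, and the sum of the α-cell markers was 17710 and 23870 CPM, of which Gcg gave 16030 and 22000. The macrophage markers summed to 70.2 and 86.4 CPM, with 1 of 6 at least 1.2-fold higher (Lyz2, 112 and 571 counts, named after its values were seen). The 5 duct markers found summed to 250.6 and 297.5 CPM, nearly all of it Krt7 (log2 ratio 0.24). Of the 4 kept, 2 were at least 1.2-fold higher and 1 lower (Krt19 with 11 and 35 counts, Muc1 with 23 and 63, and Sox9 with 25 and 27, the last with an interval that took in equality, all 3 named after their values were seen). All 16 acinar markers found were below equality in the AE-F2 library, 12 of them by at least 1.2-fold, beside 9.65% of all 13627 genes kept (13.8% were higher, which is the share to set beside the counts of higher markers here), with a sum of 2702 and 2040 CPM in control-F2 and AE-F2, and none was at 0. All 10 markers of B and plasma cells were higher in the AE-F2 library, with a sum of 15.7 and 399.7 CPM, and Pou2af1, named after its values were seen, was at 0 in the control-F2 library. Without Ighm, Igkc and Jchain, left out after their values were seen, the sum of the other 7, each of them higher, was 11.7 and 44.9 CPM. Cd79a, named after its values were seen, gave 10.9 and 18.4 CPM of this sum. Of 7 mesenchymal markers, 6 were higher, with a sum of 69.6 and 118.6 CPM. Acinar and plasma cells are themselves rich in ER folding genes. In bulk RNA, fewer cells of a type and less RNA per cell cannot be told apart, and the part of these cells in the values below was not tested.

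The most abundant member per gene length was Ero1lb, the ER oxidase that is enriched in the pancreas, at 1137 TPM (counts per kilobase of merged exons, scaled to a common total) in control-F2 and 1018 TPM in AE-F2. It exceeded its paralog Ero1l 23.3-fold in control-F2 and 20.3-fold in AE-F2 on this scale. Hsp90b1, the ER member of the HSP90 family, came next by the mean of both libraries, at 979 and 986 TPM in control-F2 and AE-F2, although Hspa5 was above it in control-F2. Hspa5 (BiP) stood at 992 and 901 TPM, P4hb at 953 and 916 TPM, and Pdia3 at 839 and 853 TPM. These 5 genes made up 49.0% of the summed TPM of the members in control-F2 and 48.6% in AE-F2. The stress-regulated end of the list was far lower, with Ddit3 at 32.3 and 22.3 TPM, Chac1 at 27.1 and 16.0 TPM, and Trib3, the scarcest member, at 4.99 and 2.73 TPM. Of the 36 members, 35 lay above the median of all kept genes, 10.95 TPM, the exception being Trib3.

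**Figure D2:**
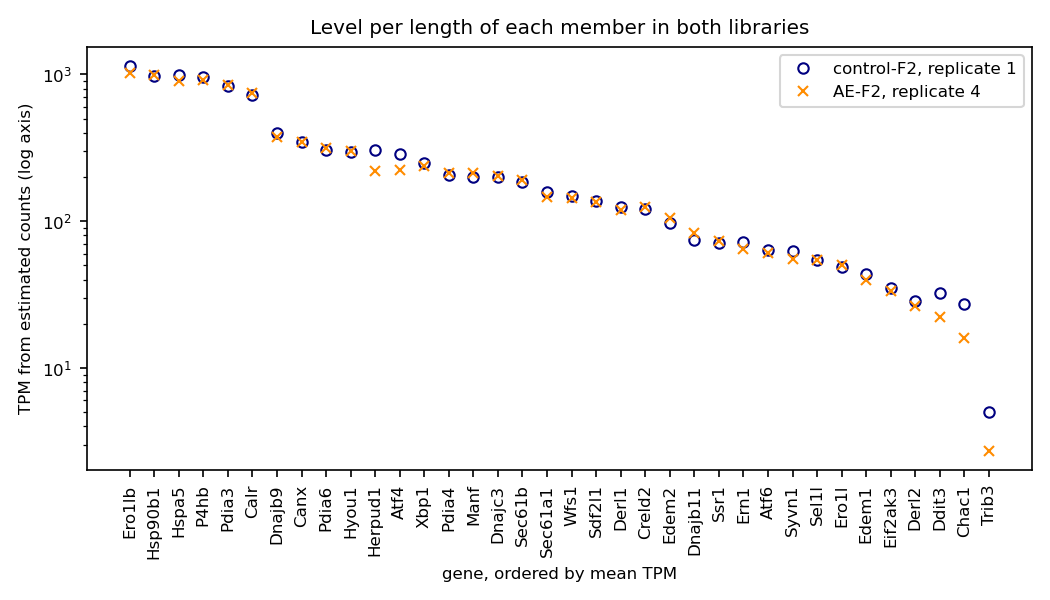
Level of each of the 36 members in TPM (log y axis) in the control-F2 library (circles) and the AE-F2 library (crosses), with genes ordered along the x axis by mean TPM. Most pairs of points lie close together, while Herpud1, Atf4, Ddit3, Chac1 and Trib3 sit visibly lower in the AE-F2 library, Trib3 at 2.73 against 4.99 TPM.

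Of the 36 members, 5 were at least 1.2-fold lower in the AE-F2 library, Trib3, Chac1, Ddit3, Herpud1 and Atf4, and 0 were at least 1.2-fold higher. Over all 13627 genes kept, 9.65% were lower and 13.8% were higher by this rule. The median log2 ratio of the members was -0.0066, with 19 genes below and 17 above equality, and that of all kept genes was -0.0014. Without those 5 genes, left out here after their values were seen, the other 31 ran from -0.13 to 0.20 with a median of 0.04. The counting interval lay below equality for 12 members and above it for 12, against 13.7% and 13.2% of all genes. Most members are abundant, which narrows the interval, so the 33 members whose mean reached 1000 counts were also read against the 3471 genes at that level. There, 2 of 33 members were lower and 0 were higher, against 3.83% and 1.38% of genes, and intervals lay below equality for 9 members and above it for 12, against 25.5% and 16.0%. The 3 members under 1000 counts, Ddit3, Chac1 and Trib3, were all lower, against 11.6% of the 10156 genes at that level, of which 18.0% were higher. At 1.5-fold, 2 members were lower (Trib3 and Chac1), against 2.20% of all genes, and at 2-fold 0 were, against 0.660%.

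**Figure D3:**
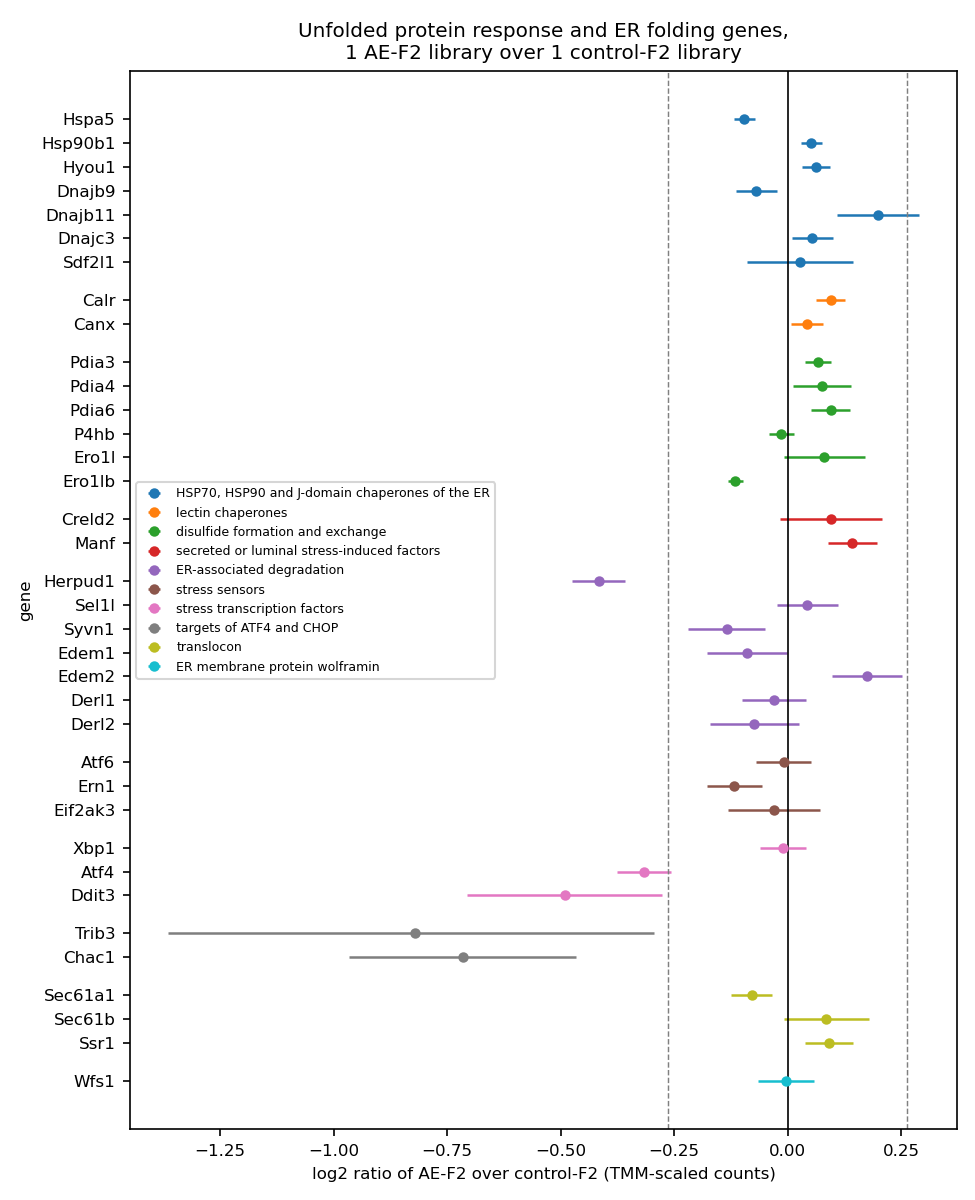
Log2 ratio (AE-F2 over control-F2) for each member (x axis), grouped and coloured by role (y axis), with the 95% counting interval as a bar and dashed lines at 1.2-fold in each direction. All members but 5 lie between the dashed lines, and Herpud1, Atf4, Ddit3, Trib3 and Chac1 lie to the left of them, from -0.32 to -0.82.

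The chaperones of the HSP70, HSP90 and J-domain families lay close to equality. Their summed level, with Sdf2l1 grouped among them here, was 5310 CPM in control-F2 and 5311 CPM in AE-F2. Hspa5, the HSP70 of the ER that also holds the stress sensors inactive, had 28492 counts in control-F2 and 34787 in AE-F2, a log2 ratio of -0.10 (interval -0.12 to -0.07). Hsp90b1 (GRP94), which folds a narrower set of clients, had 26826 and 36286 counts, with a ratio of 0.05 (0.03 to 0.08). Both of these abundant chaperones thus differed by under 1.2-fold, and with trends of GC content and gene length removed the ratio of Hsp90b1 was 0.0086 (-0.01 to 0.03). Hyou1, a nucleotide exchange factor for BiP, had 896 and 936 CPM and a log2 ratio of 0.06. Among the J-domain cochaperones, Dnajc3 (p58IPK) had a log2 ratio of 0.05 and Dnajb9 (ERdj4) of -0.07, the latter from 427 and 407 CPM. With the same trends removed, Hspa5 (-0.12), Hyou1 (0.10) and Dnajb9 (-0.13) lay further from equality, and Dnajc3 (0.03) lay closer to it. Dnajb11 (ERdj3), a cochaperone that hands clients to BiP, had the highest ratio of all members, 0.20 (0.11 to 0.29), from 1637 and 2451 counts. At this level of expression, 3.46% of the 3471 genes had a ratio at least as high as that of Dnajb11. Sdf2l1, which works with ERdj3, had 63.4 and 64.6 CPM and an interval of -0.09 to 0.14.

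The lectin chaperones, which hold glycoproteins during folding, were both slightly above equality. Calr (calreticulin) had 864 CPM in control-F2 and 922 in AE-F2, a log2 ratio of 0.09 (0.06 to 0.13). Canx (calnexin), its membrane-bound relative, had 676 and 696 CPM and a ratio of 0.04 (0.01 to 0.08), which was 0.0065 (-0.03 to 0.04) with GC and length trends removed. Among the enzymes of disulfide formation and exchange, Pdia3 (log2 ratio 0.07), Pdia4 (0.07) and Pdia6 (0.09) had intervals above equality, of which that of Pdia4 took in equality with GC and length trends removed (0.03). P4hb, the founding protein disulfide isomerase, had 1137 and 1126 CPM, with an interval of -0.04 to 0.01. Both ER oxidases, which recharge these isomerases, lay on different sides of equality. Ero1lb had 3152 and 2909 CPM, a log2 ratio of -0.12 (-0.13 to -0.10), and Ero1l had 107.7 and 114 CPM, a ratio of 0.08 whose interval, -0.01 to 0.17, took in equality. None of these 8 genes reached 1.2-fold.

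Manf and Creld2 encode small proteins that are induced by ER stress and partly secreted. Manf had 4776 counts in control-F2 and 6878 in AE-F2, a log2 ratio of 0.14 (0.09 to 0.20), and Creld2 had 1115 and 1553 counts, a ratio of 0.09, interval -0.02 to 0.21. Among the same 3471 genes, 7.17% had a ratio at least as high as that of Manf. The translocon genes were near equality as well. Sec61a1, the channel itself, had 443.5 and 419.8 CPM (log2 ratio -0.08), its small subunit Sec61b had 98.0 and 103.9 CPM (0.08), and Ssr1 of the translocon-associated complex had 308 and 328 CPM (0.09). Wfs1, the ER membrane protein that is mutated in Wolfram syndrome with its juvenile diabetes, had 3808 and 4954 counts, which were 233.6 and 233 CPM (log2 ratio -0.0040, interval -0.07 to 0.06).

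Genes of ER-associated degradation held 1 of the 5 lower members, and their median log2 ratio was -0.07. Herpud1 (ENSMUSG00000031770), a membrane protein that assembles the degradation complex and is known to answer to several UPR arms, had 4816 counts in control-F2 and 4708 in AE-F2. These counts were 295.5 and 221.4 CPM, 1.33-fold lower in the AE-F2 library, with a log2 ratio of -0.42 (-0.47 to -0.36). A ratio this low was found for 1.44% of those 3471 genes. The partners of Herpud1 in that complex were closer to equality, Sel1l at 194.3 and 200.2 CPM (log2 ratio 0.04) and the ubiquitin ligase Syvn1 (HRD1) at 127.1 and 115.7 CPM (-0.13, interval -0.22 to -0.05). For every 100 counts of Sel1l there were 152.1 counts of Herpud1 in control-F2 and 110.6 in AE-F2. Edem1 and Edem2, which trim the glycans of doomed proteins, lay on opposite sides, with log2 ratios of -0.09 (-0.18 to -0.0021) and 0.17 (0.10 to 0.25). With upper-quartile scaling the interval of Edem1 took in equality (-0.16 to 0.01). Derl1 (-0.03) and Derl2 (-0.07), of the membrane channel, had intervals that included equality.

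The mRNAs of the 3 stress sensors lay close to equality, and the interval was below it for Ern1 but took it in for Atf6 and Eif2ak3. Atf6 had 243.5 CPM in control-F2 and 242 in AE-F2 (log2 ratio -0.0091), Eif2ak3 (PERK) had 88.2 and 86.4 CPM (-0.03), and Ern1 (IRE1) had 246.6 and 227.3 CPM (-0.12, interval -0.18 to -0.06). Xbp1, the target of IRE1, had 5462 and 7076 counts and a log2 ratio of -0.01 (-0.06 to 0.04). Counts per gene do not separate the spliced from the unspliced form of Xbp1, nor do they show the cleavage of ATF6 or the phosphorylation of PERK, so the state of the sensors was not measured.

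The remaining 4 members, which lie on the PERK and ATF4 arm, were the most displaced together with Herpud1. Atf4 (ENSMUSG00000042406), the transcription factor of this arm, had 4587 counts in control-F2 and 4804 in AE-F2, 281.4 and 225.9 CPM. It was 1.25-fold lower, with a log2 ratio of -0.32 (-0.38 to -0.26), and the upper end of its interval reached just inside 1.2-fold. Ddit3 (ENSMUSG00000025408), which encodes the pro-apoptotic factor CHOP, had 376 and 349 counts (23.1 and 16.4 CPM) and was 1.41-fold lower, with a log2 ratio of -0.49 (-0.71 to -0.28). A ratio as low as that of Ddit3 was found for 1.15% of the 7069 genes with a mean of 100 to 1000 counts. Chac1 (ENSMUSG00000027313), which breaks down glutathione, had 301 and 239 counts (18.5 and 11.2 CPM) and was 1.64-fold lower, with a log2 ratio of -0.72 (-0.97 to -0.47), which 0.311% of the genes at that level matched. Trib3 (ENSMUSG00000032715), a pseudokinase that restrains AKT and ATF4, had the fewest counts, 72 and 53 (4.42 and 2.49 CPM), and was 1.77-fold lower, with a wide interval on the log2 ratio of -0.82 (-1.37 to -0.29). The order of Trib3, Chac1 and Ddit3 is not settled by the counts, since the intervals of Trib3 and Ddit3 both overlap that of Chac1. For every 100 counts of Atf4 there were 6.56 counts of Chac1 in control-F2 and 4.98 in AE-F2. The counts of Ddit3, Manf and Derl2 were not whole numbers in at least 1 library, as arises when reads are divided between genes, so these values are less certain, and a second identifier with the symbol Ddit3 held 0 counts in control-F2 and 0.89 in AE-F2.

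**Figure D4:**
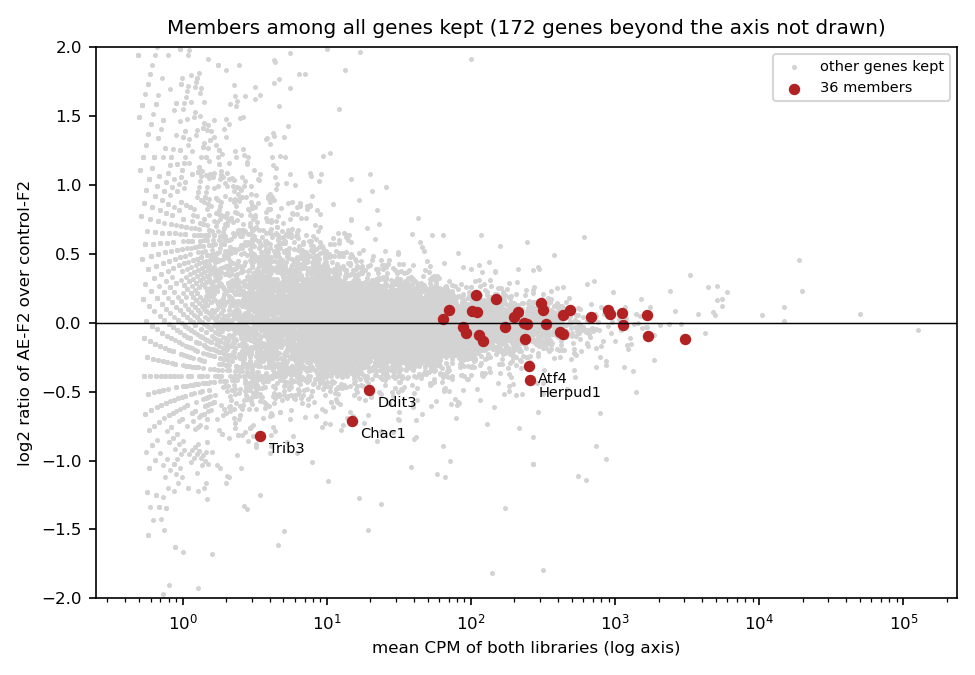
Log2 ratio (AE-F2 over control-F2) (y axis) against mean CPM of both libraries (log x axis) for the 36 members (red) and the other genes kept (grey), with 172 genes beyond the y axis not drawn. Atf4 and Herpud1 lie at the lower edge of the genes of their level, at -0.32 and -0.42, and Ddit3, Chac1 and Trib3 lie below most genes of theirs.

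Further genes of the ATF4 programme, from a list of 28 that was also chosen with earlier results known, were lower as well. Of the 24 that passed the minimum count, 16 were at least 1.2-fold lower in the AE-F2 library and 0 were higher, beside 9.65% and 13.8% of all genes, and 23 of the 24 were below equality. Their median log2 ratio was -0.35, and the summed level of all 28 genes was 2303 CPM in control-F2 and 1836 CPM in AE-F2. Phgdh, which opens serine synthesis, had 51.5 and 28.7 CPM, a log2 ratio of -0.84 (-0.99 to -0.69). Ppp1r15a (GADD34), which brings the eIF2α phosphatase and so ends the translational block, had 2628 and 2055 counts, a ratio of -0.74 (-0.82 to -0.65). Eif4ebp1, a repressor of cap-dependent translation, had a ratio of -0.74 from 263 and 205 counts. The amino acid transporter subunit Slc3a2 had 205.6 and 159.2 CPM (-0.37), and the tRNA synthetase genes Aars (-0.29), Sars (-0.20) and Gars (-0.10) were displaced less. Asns (-0.39), which makes asparagine, Atf5 (-0.61), a related transcription factor, Ddit4 (-0.71), an inhibitor of mTORC1, and the mitochondrial one-carbon enzyme Mthfd2 (-0.66) were named after their values were seen. CARE letters were present in 8 of the 21 windows found for the list (38.1%), beside 3.95% of all windows, among them those of Asns, Aars and Gars. Within this list the genes with CARE were not the lowest, as the 7 kept genes with it had a median log2 ratio of -0.29 with 4 at least 1.2-fold lower, and the 11 kept genes whose windows lack it had a median of -0.46 with 9 lower. Cth, Stc2, Gdf15 and Fgf21 did not pass the minimum count.

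In the other lists of the secretory pathway few genes passed 1.2-fold, as was also the case among abundant genes in general. Beside the counts that follow stand 9.65% lower and 13.8% higher among all genes kept, and 3.83% and 1.38% among the 3471 genes whose mean reached 1000 counts. Of 29 further ER folding genes, 0 were at least 1.2-fold lower and 1 was higher, Dnajc10 (ERdj5), a disulfide reductase, with 2103 and 3537 counts and a log2 ratio of 0.37 (0.29 to 0.45). Their median was 0.02, and abundant members such as Uggt1, the folding sensor of glycoproteins, had 385 and 415 CPM (0.11). Of 24 further degradation genes, 0 were lower and 0 higher, with a median of 0.0001, and Vcp, the ATPase that extracts proteins from the membrane, had 396 and 430.1 CPM (0.12). The list of 27 further genes for the translocon, signal peptidase and glycosylation had a median of 0.10 with 24 above equality, while 50.3% of all genes kept were below it. In this list 15 intervals lay above equality and 1 below, beside 13.2% and 13.7% of all genes and 16.0% and 25.5% of the abundant ones, and 1 gene passed 1.2-fold, Tram2, named after its values were seen, whose interval of -0.04 to 0.86 took in equality. Rpn1, of the oligosaccharyltransferase, had 339.5 and 383.1 CPM (0.17). Of 20 genes of ER to Golgi transport, 0 were lower and 0 higher, and the cargo receptor Lman1 had 533.6 and 574.9 CPM (0.11). The ER calcium list, with 10 of 11 genes kept, had a median of -0.0044, and its most abundant member, the calcium pump Atp2a2 (SERCA2), had 2389 and 2378 CPM. Among 23 further stress signalling genes the median was -0.01 and 1 was lower. This was Atf3, a factor induced by ATF4 and also by many other stimuli, with 757 counts in control-F2 and 98 in AE-F2, a log2 ratio of -3.33 (-3.65 to -3.03).

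**Figure D5:**
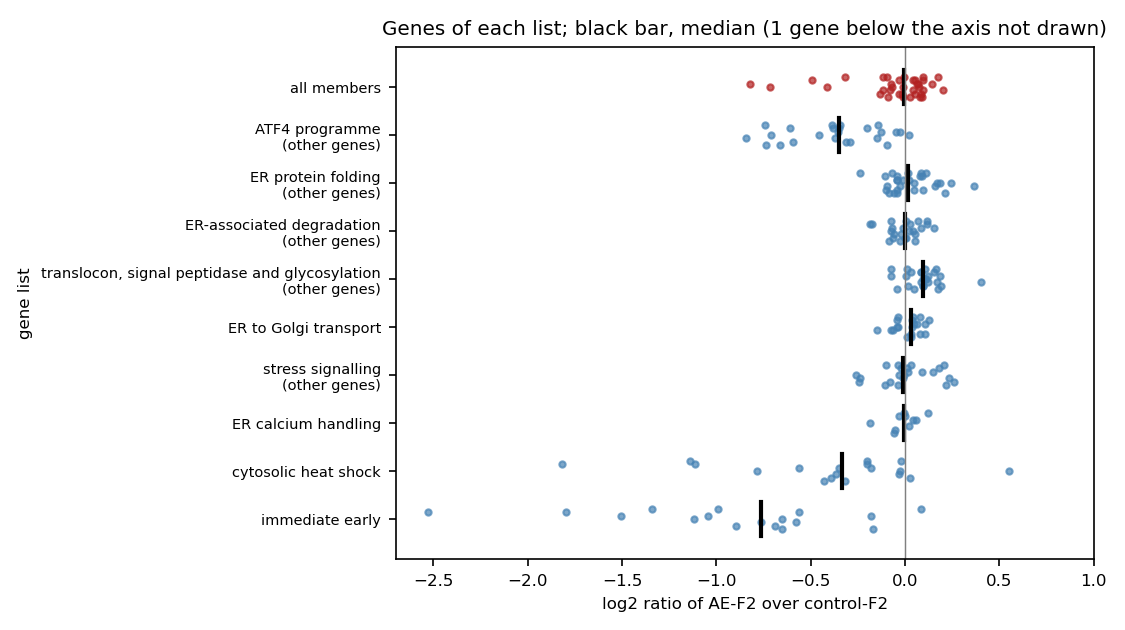
Log2 ratio (AE-F2 over control-F2) (x axis) for the members (red) and the kept genes of each list (blue), 1 list per line, with the median as a black bar and 1 gene below the axis (Atf3) not drawn. The medians of the ATF4 programme (-0.35), the cytosolic heat shock genes (-0.34) and the immediate early genes (-0.76) lie left of the other lists, which centre between -0.01 and 0.10.

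Genes of acute cell stress outside the ER were lower beside the ATF4 arm in these libraries. Of 18 cytosolic heat shock genes, 10 were at least 1.2-fold lower in the AE-F2 library and 1 was higher (Cryab, named after its values were seen, at 28 and 54 counts with an interval that took in equality), beside 9.65% and 13.8% of all genes, with a median log2 ratio of -0.34 and a summed level of 6237 CPM in control-F2 and 4383 CPM in AE-F2. Hspa1a, the inducible HSP70, had 859 and 389.5 CPM (-1.14), and its HSP40 partner Dnajb1 had 217.3 and 61.6 CPM (-1.82). Hspa8, the constitutive cytosolic counterpart of Hspa5, had 1482 and 1162 CPM (-0.35), whereas Hspa5 had 1748 and 1636 CPM. Of 17 immediate early genes kept, 14 were lower and 0 were higher, beside the same 9.65% and 13.8%, with a median of -0.76. All 18 genes of that list summed to 4927 and 2592 CPM, and Fos had 1142 and 575 CPM (-0.99). No gene of either list was at 0 in either library. According to the methods, islets were isolated by collagenase, picked by hand and cultured, and the time in culture is not given. The part of handling in the values of the ATF4 arm was not tested, and with 1 library per group it cannot be told apart from the line of the animals.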

How the data were processed

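RNA-seq was made from islets of F2 males. Per the labels, 7 samples form 2 groups, and 1 library of each was analysed. The authors deposited estimated counts per gene, not scaled for depth or length. The submitters' processing notes name Bowtie2, RSEM and DESeq2, whereas the methods of the study name HISAT2, and the genome build and annotation are not given in the sources used here. Division of reads between similar genes can move single values. Of 21899 Ensembl identifiers, 21806 matched a GENCODE M21 symbol, and the identifier with the most counts was used where a symbol had several. Counts were rounded to whole numbers and scaled with TMM (edgeR 4.0.16, R 4.3.3). TPM used merged exon lengths of GENCODE M21. Clopper-Pearson and Wilson intervals (scipy 1.17.1) cover counting error only. They also take the counts as independent molecules, which PCR copies are not, so they can be too narrow. No model was fitted. The ratio was tested on simulated data. The sequences are those of RefSeq (GRCm38.p6). The members and lists were chosen with earlier results of these data known. All members are named. From each marker list the 2 most abundant genes could be named. From each other list these were up to 4 of the most abundant and up to 3 with the largest ratios among those with a mean of at least 100 counts. Any other gene whose values are given is said to be chosen after they were seen. Alternatives were other scalings (DESeq2 1.42.0 size factors among them), filters, pseudocount, folds, thinning, and removal of GC and length trends.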

Additional observations from a re-analysis of the deposited data

How the results depend on the processing

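The number of members at least 1.2-fold lower was 5 and the number higher was 0 under every alternative scaling, filter and pseudocount, after thinning and after removal of GC and length trends. With a threshold of 1.5-fold, 2 were lower, and with 2-fold, 0 were. The median log2 ratio of the members ran from -0.0088 to 0.011 over 10 alternatives. It was above 0 with totals without the 10 most abundant genes and with upper-quartile scaling, which also raised the median of all genes, by 0.0177 and 0.0145. The number of members with an interval above equality, 12 as reported, was 8 with GC and length trends removed, 11 after thinning, 14 with upper-quartile scaling, 15 with totals without the 10 most abundant genes, and 12 under the other alternatives. Removal of the trends lost Hsp90b1, Dnajc3, Canx and Pdia4 there, and Sec61a1 among those below, and Edem1 lost its interval below equality with thinning and both of those scalings. Of 360 values of single members under alternatives, 353 stayed inside the counting interval of the value as reported, 7 left it, and 0 of those with an interval off equality changed sign. Over these alternatives Herpud1 ran from -0.43 to -0.40, Atf4 from -0.34 to -0.30, Ddit3 from -0.57 to -0.45, Chac1 from -0.75 to -0.70 and Trib3 from -0.84 to -0.79. No paired analysis was possible because only 1 library of each group was analysed, and for the same reason no library could be left out. Depth limits Trib3 most, with a mean of 62.5 counts. Protein sequence features were planned and not run.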
